A study of Mus musculus with 18 samples.

Results

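The cytosolic ribosomal protein genes were described in RNA from whole pancreatic islets of mice. They were chosen by symbol: every gene named Rpl or Rps followed by a number, a or p, leaving out the Rps6k kinases (8 genes) and symbols of pseudogenes (0 genes). The rule took 64 of the 10509 genes listed, of which 36 encode proteins of the large subunit, 22 encode proteins of the small subunit and 6 are diverged copies or other matches. It used no measured value. Of the 86 genes of this kind in the mouse annotation, the other 22 were not analysed here.

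Both groups of mice had been fed a high-fat diet for 12 weeks before their islets were collected. The KO group (10 libraries) was labelled as a knockout of NRK1, the nicotinamide riboside kinase that feeds vitamin B3 derivatives into NAD synthesis, made through a Cre recombinase driven by Ins1, so that the deletion was aimed at insulin-producing beta cells. The WT group (8 libraries) had the same diet, and the labels do not say whether these mice carried Cre. The labels give no sex, age or batch, and they do not say whether islets of several mice were pooled in a library. Numbers from KO 1 to KO 10 and from WT 1 to WT 8 name the libraries.

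Ribosomes are built from ribosomal RNA and a set of proteins, most of which are needed in equal amounts, and beta cells use them to make large quantities of proinsulin. Messenger RNAs of ribosomal proteins typically start with a run of pyrimidines, the terminal oligopyrimidine tract, through which the mTOR pathway adjusts their translation. In mammalian genomes these genes are also known for their many processed pseudogenes, copies of the spliced messenger RNA that carry the same letters up to the polyadenylation site.

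Reads were taken from the 3′ ends of transcripts, which gives about 1 read per molecule whatever its length, so levels were not divided by gene length. Values are log2 CPM with a small constant of 0.562 CPM added, where CPM relates the reads of a gene to the scaled size of its library, and a gene with no read has the value -0.83. The libraries held 2831137 to 4303680 reads over the listed genes. The beta-cell list, with 16 of its 19 genes measured, averaged 8.58 to 8.93 log2 CPM in KO libraries and 8.67 to 9.04 in WT libraries, and Ins2 alone took 37.7% to 56.1% of the reads in KO libraries and 33.4% to 45.9% in WT libraries. The most genes without a read were seen in KO 2, KO 3 and WT 7, at 320, 227 and 346, against 33 to 150 in the other libraries. Nmrk1, the gene of NRK1, had 4 to 21 reads in KO libraries and 3 to 36 reads in WT libraries, and the KO minus WT difference was -0.03 ± 0.35 (log2, SE; limma adjusted p = 0.997). These 3′ reads did not separate the groups by the deleted gene, and the labels do not say which part of it was removed. In whole islets, fewer cells of a type and less RNA per cell cannot be told apart.

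The 64 genes spanned nearly the whole range of levels among the listed genes. Rps20, a protein of the small subunit, was the highest, at 937 ± 218 CPM in KO libraries and 983 ± 202 CPM in WT libraries (SD, n = 10 and 8). Only 32 of all listed genes had a higher mean log2 level. Rpl4 and Rpl8, proteins of the large subunit, followed with 686 ± 77.7 and 613 ± 106 CPM in KO libraries, against 609 ± 49.6 and 681 ± 115 CPM in WT libraries. Their order differed between the groups by no more than the spread. Rpl26 and Rpl14, also of the large subunit, completed the highest 5, at 8.71 and 8.58 log2 CPM over all libraries.

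At the other end stood Rps3a1 of the small subunit, with 0 to 8 reads in KO libraries and 0 to 15 reads in WT libraries. Rpl5, which joins the 5S ribosomal RNA to the large subunit, had 0 to 13 reads in KO libraries and 0 to 16 reads in WT libraries, and 4 of the 8 WT libraries had none. Rpl30, Rpl36 and Rps28 made up the lowest 5, at 0.71, 0.99 and 1.13 log2 CPM. The mean CPM of the highest gene was 747 times that of the lowest, 957 against 1.28 CPM, and the median gene had 25.6 CPM. A count of 0 allows up to 3 reads, which is 0.714 to 1.23 CPM in these libraries.

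**Figure D1:**
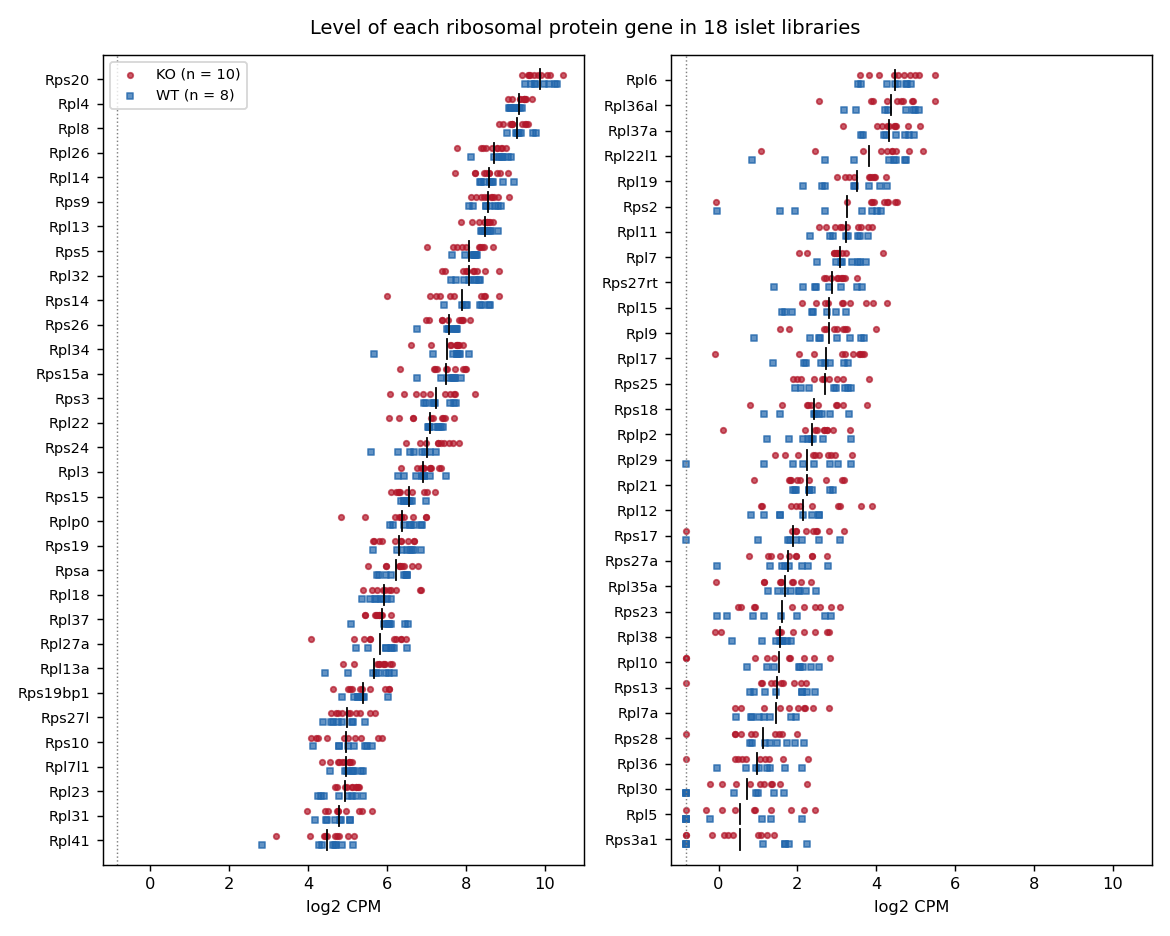
The log2 CPM in each library of 63 of the 64 genes, KO as circles above and WT as squares below, sorted by mean level (black bars). The dotted line marks the value of 0 reads. Rps20 lies at the top and Rps3a1 at the bottom, and KO and WT values overlap in every row.

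Reads were concentrated in few of these genes. The highest 5 by reads held 43.6% and the highest 10 held 66.4% of the reads in the 64 genes. At the same time 9 genes had no read in at least 1 library, 8 had a mean under 10 reads, 33 had a mean under 100 reads and 31 had a mean of 100 reads or more. All 64 passed the filter on low values. In mean log2 level 36 of them lay above the median of all listed genes.

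Whether the end of each gene is unique in the mouse transcriptome was read from the GENCODE M21 annotation of GRCm38. For each gene, the last 200 bases of its transcript and, separately, the last 200 coding bases were divided into overlapping windows of 50 bases, and a window counted as shared if a transcript of another gene at another place held exactly the same letters. At least 50% of coding-end windows were shared for 53 of the 64 genes (82.8%), against 4.07% of all listed genes and 5.71% of the 70 mitochondrial ribosomal protein genes. For the transcript end the count was 23 of 64 (35.9%), against 0.725% of all listed genes and 1.43% of the mitochondrial ones. Of the 22 ribosomal protein genes not analysed here, 18 had at least 50% of coding-end windows shared.

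Level went with this sharing. The 53 genes with a mostly shared coding end had a median level of 3.51 log2 CPM, and the 11 others had a median of 7.92 log2 CPM. Across the 64 genes, which come from the same libraries and are not independent replicates, level and shared coding end had a Spearman's rho of -0.60 and a Pearson's r of -0.58. For the transcript end they were -0.30 and -0.32. Among the other listed genes, those with a mostly shared coding end (368 genes) had a median of 3.83 log2 CPM and the rest (9913 genes) had 4.10. The sources used here do not say how reads that match several places were treated, and its part in the levels was not tested.

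The last 30 coding bases of the genes at both ends of the range are shown because these letters, with the stop codon in capitals, are what a read near the end of the coding sequence would have to tell apart from other genes. They are read 5′ to 3′ on the gene's strand in GRCm38, first 4 of the lowest genes and then 4 of the highest. The stop codon of Rps3a1 is at chr3:86137989-86137991 (minus strand), that of Rpl5 at chr5:107907994-107907996 (plus), that of Rpl30 at chr15:34440555-34440557 (minus) and that of Rpl36 at chr17:56614211-56614213 (plus). Among the highest, the stop codon of Rps20 is at chr4:3834501-3834503 (minus), that of Rpl4 at chr9:64178442-64178444 (plus), that of Rpl8 at chr15:76906277-76906279 (plus) and that of Rpl26 at chr11:68904491-68904493 (plus).
Rps3a1: tatgaaccgccagtccaagaatcagtgTAA
Rpl5: agagctcaggaaagggctgctgaaagcTAA
Rpl30: agcatgccagaacagactggtgagaagTAA
Rpl36: atgaggaaggcggcggccaagaaggatTGA
Rps20: gaggttgaagtcaccattgcagatgccTAA
Rpl4: actacagaagaaaagaagccagctgcaTAA
Rpl8: accaaaactgtacaggagaaggagaacTAG
Rpl26: gaagaaacgatcgagaagatgcaggagTAG

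Exact copies of these stretches were found in transcripts of 3 other genes for Rps3a1, 4 for Rpl5, 6 for Rpl30 and 2 for Rpl36. For the highest genes the numbers were 1 for Rps20, 0 for Rpl4, 0 for Rpl8 and 2 for Rpl26. Rpl5 and Rps20 show that the 2 measures of sharing need not go together. Neither had a shared window in the last 200 bases of the transcript, which lie in 3′ untranslated regions annotated at 1009 and 3167 bases, while 100% of the coding-end windows of Rpl5 and 75.5% of those of Rps20 were shared. Rps2, whose coding end recurs in 17 other genes, had 1 to 81 reads in KO libraries and 1 to 65 reads in WT libraries.

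**Figure D2:**
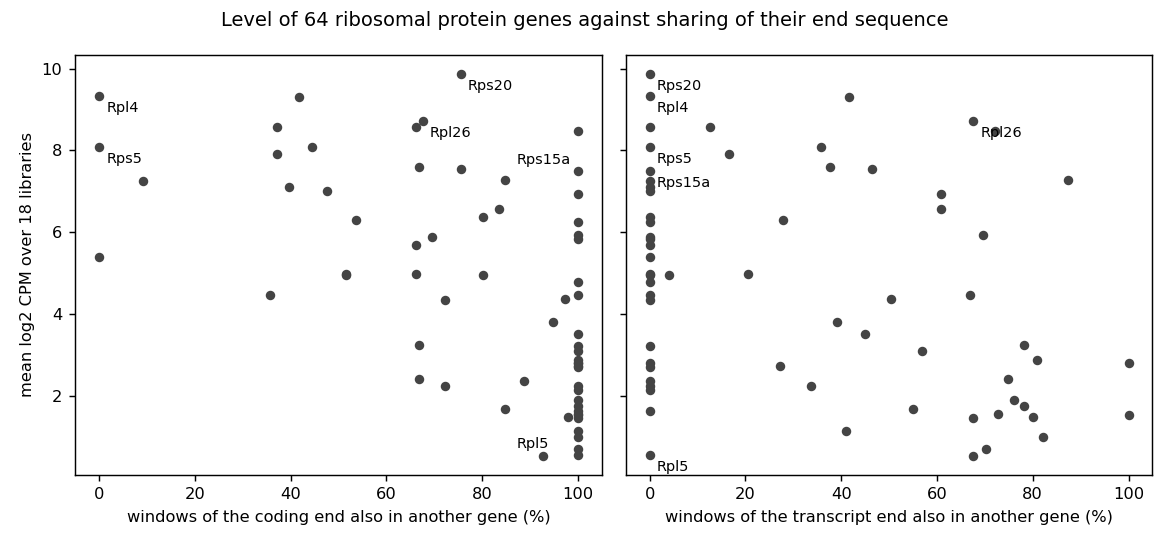
Mean log2 CPM over the 18 libraries against the share of 50-base windows found in another gene, for the coding end (left) and the transcript end (right), with 1 point per ribosomal protein gene. Genes below 2 log2 CPM lie at the right of the left panel, and in the right panel Rps20 and Rpl5 both lie at 0%.

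The libraries differed from each other in these genes by more than counting error. Spread was taken as the SD between libraries of the same genotype, on the log2 scale, pooled over both. It ranged from 0.149 for Rpl4 to 1.42 for Rps2, with a median of 0.55 over the 64 genes, against 0.50 over all listed genes and 0.43 over the 70 mitochondrial ribosomal protein genes. In the 31 genes with a mean of 100 reads or more the median spread was 0.37, where counting alone would give 0.0635. In the 33 genes with fewer reads it was 0.77, where counting alone would give 0.334.

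Rpl4, Rpl13 and Rpl8 varied least. Rpl13, of the large subunit, lay between 7.89 and 8.69 log2 CPM in KO libraries and between 8.40 and 8.81 in WT libraries, with medians of 8.53 in both. Rps2, Rpl22l1 and Rpl5 varied most. Rpl22l1, a paralog that can take the place of Rpl22, had 1.09, 4.33 and 5.19 log2 CPM as the lowest, median and highest value in KO libraries, against 0.84, 4.38 and 4.74 in WT libraries. Its parent Rpl22 kept a narrower range, 6.05 to 7.70 log2 CPM in KO libraries and 7.05 to 7.41 in WT libraries.

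The better-covered genes moved together from library to library, in part. After the group means were removed, the 465 pairs among the 31 genes had a median Pearson's r of 0.24 over the 18 libraries, and 68.8% of pairs were positive. Among the 3857 listed genes with as many reads the median was 0.0063 and 50.6% of pairs were positive. Without KO 2, KO 3 and WT 7 the medians were 0.28 and 0.0041 over 15 libraries. These pairs share libraries and scaling and are given as a description.

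The genes in which KO 2 was lowest were in part not those in which WT 7 was lowest. KO 2 was the lowest KO library in 12 of the 31 genes, KO 3 in 8, and WT 7 the lowest WT library in 12. The same count was not made over all listed genes, so these numbers are no trait of ribosomal protein genes. These libraries also had the most listed genes without a read. Rps14, a small-subunit protein whose loss of 1 copy underlies the anaemia of 5q- syndrome in people, had 6.02 log2 CPM in KO 2, the lowest of all libraries, and 8.61 in WT 7, the highest of the WT libraries. Rpl27a, of the large subunit, had 4.07 log2 CPM in KO 2 and 6.51 in WT 7, the lowest and the highest of all 18. Rpl34 and Rps24 did the opposite: Rpl34 had 7.92 log2 CPM in KO 2 and 5.66 in WT 7, and Rps24 had 7.68 in KO 2 and 5.59 in WT 7.

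Rplp0, the base of the stalk that recruits elongation factors, was also low in KO 2, with 4.83, 6.36 and 7.0 log2 CPM as the lowest, median and highest value in KO libraries, against 6.07, 6.59 and 6.89 in WT libraries. Its stalk partner Rplp2 had 0.12, 2.67 and 3.32 log2 CPM in KO libraries, against 1.22, 2.32 and 3.35 in WT libraries, with the lowest value in KO 4.

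**Figure D3:**
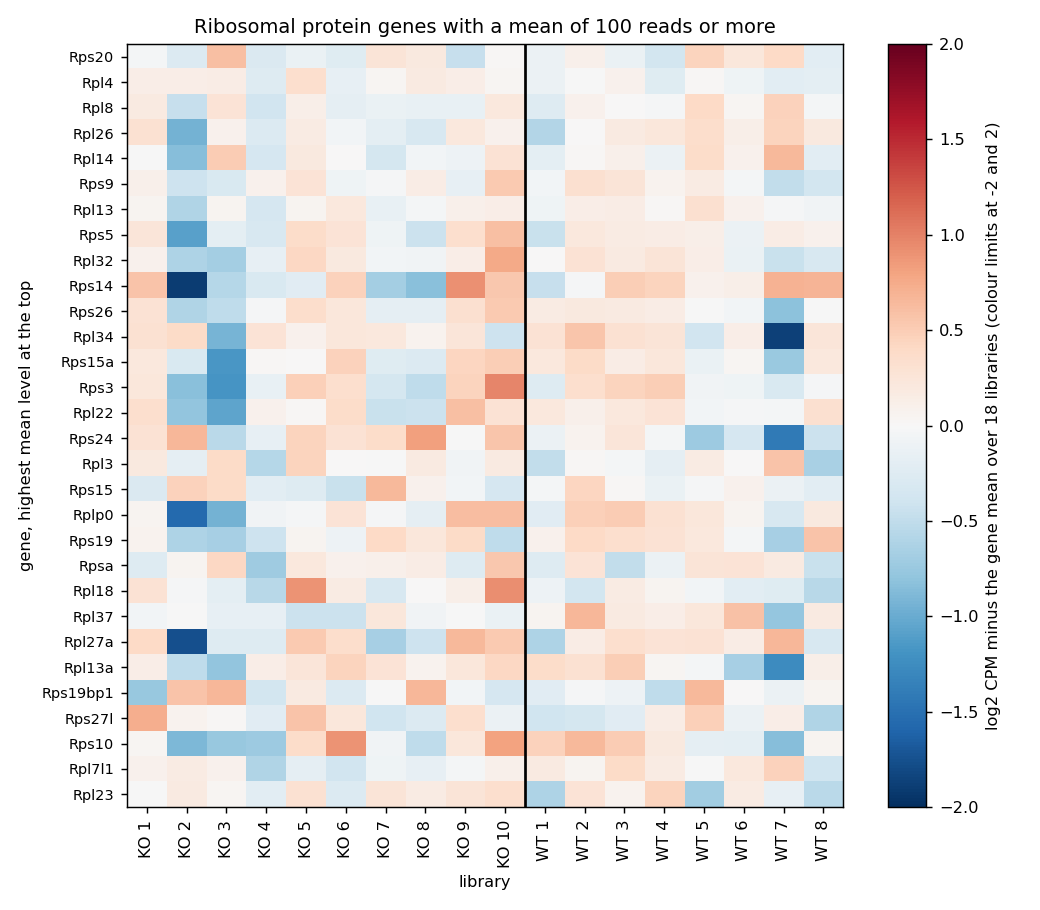
Deviation of each gene from its own mean over the 18 libraries, in log2 CPM, for 30 of the 31 genes with a mean of 100 reads or more, KO libraries left of the black line and WT libraries right of it. KO 2 is blue for Rps14, Rplp0 and Rpl27a, while WT 7 is blue for Rpl34, Rps24 and Rpl13a and red for Rps14 and Rpl27a.

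The 64 genes together took 0.695% ± 0.111 of the reads in KO libraries and 0.747% ± 0.0718 in WT libraries (SD, n = 10 and 8). These shares cover 64 of the 86 genes of this kind in the annotation. How reads matching several places were counted is not known, so the shares are no total for ribosomal protein RNA in islets. The lowest share was 0.487% in KO 2 and the highest 0.842% in WT 2, and the groups overlapped. Outside the insulin genes Ins1 and Ins2 the shares were 1.36% ± 0.176 in KO libraries and 1.38% ± 0.0819 in WT libraries. The mean log2 level over the 64 genes was 4.73 ± 0.21 in KO libraries and 4.66 ± 0.20 in WT libraries. The difference between the group means was smaller than the SD on each of these scales. The mean log2 level was lowest in WT 7, KO 2 and KO 3, at 4.26, 4.33 and 4.42, the same 3 libraries in which the number of listed genes without a read was largest.

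No ribosomal protein gene passed the test between KO and WT. The test was limma on the log2 values, a linear model per gene with a shared variance trend, two-sided, with Benjamini-Hochberg adjustment over all 10509 genes and a threshold of 0.05. It called 0 of the 64 genes and 0% of all listed genes, and limma's voom model on the recovered reads called 0 of the 64 as well. At an unadjusted p under 0.05 there were 2 of the 64 (3.12%), against 5.4% of all listed genes. By sign 36 genes were higher and 28 lower in KO libraries, and 49.6% of all listed genes were higher. The median KO minus WT difference was 0.05 on the log2 scale, against -0.0025 over all listed genes.

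The sign of that median was not stable. The 33 genes with a mean under 100 reads had a median of 0.14, with 23 higher and 10 lower. The 31 genes with more reads had a median of -0.07, with 13 higher and 18 lower. Without WT 7 the median over the 64 genes was -0.04. The intervals were narrow enough to exclude a 2-fold change in either direction for 45 of the 64 genes (70.3%), against 77.1% of all listed genes. Among the 31 genes with more reads they did so for 30. The share among all listed genes with as many reads was not counted, so this is not set apart from coverage.

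Of the small-subunit genes 9 were higher and 13 lower, with a median of -0.06, and of the large-subunit genes 22 were higher and 14 lower, with a median of 0.09. Rps24, mutated in some people with Diamond-Blackfan anaemia, had the smallest p. It had 6.48, 7.34 and 7.84 log2 CPM as the lowest, median and highest value in KO libraries, against 5.59, 6.79 and 7.26 in WT libraries. The groups overlapped, and the difference was 0.62 ± 0.19 (log2, SE; limma p = 0.00344, adjusted p = 0.797).

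Rpl15 of the large subunit, the other gene with an unadjusted p under 0.05, had 2.12, 3.15 and 4.26 log2 CPM in KO libraries, against 1.60, 2.39 and 3.23 in WT libraries. Its difference was 0.80 ± 0.31 (log2, SE; limma p = 0.0146, adjusted p = 0.897), from 10 to 73 reads in KO libraries and 6 to 32 reads in WT libraries. Rps2 had -0.07, 4.07 and 4.54 log2 CPM in KO libraries, against -0.04, 3.17 and 4.12 in WT libraries. Its difference of 0.94 had an interval of -0.17 to 2.04 and included 0. It was 0.54 without WT 7, 1.35 without KO 3 and 0.08 in a fit of 12 libraries with runs of numbers in the titles as a term. It was not called in any of these. Rpl18 completed the 4 with the smallest p among genes higher in KO, at 0.30 ± 0.18 (log2, SE).

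Among genes lower in KO the smallest p belonged to Rpl37, Rps14, Rps19 and Rpl7l1. Rpl37, of the large subunit, had 5.44, 5.77 and 6.10 log2 CPM in KO libraries, against 5.10, 6.05 and 6.53 in WT libraries. Rps14 had 6.02, 7.65 and 8.83 log2 CPM in KO libraries, against 7.46, 8.20 and 8.61 in WT libraries. Rps19, the gene most often mutated in Diamond-Blackfan anaemia, had 5.64, 6.28 and 6.70 log2 CPM in KO libraries, against 5.64, 6.55 and 6.87 in WT libraries. The differences were -0.28 for Rpl37, -0.46 for Rps14, -0.27 for Rps19 and -0.23 for Rpl7l1, each with a limma adjusted p of 0.945. The groups overlapped in all 4. The difference of Rps14 was -0.27 without KO 2 and -0.14 without KO 2, KO 3 and WT 7.

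None of the 6 diverged copies and other matches was called, and 5 of them were higher in KO libraries. Rps27l, a paralog of Rps27 that p53 induces, averaged 5.08 ± 0.37 log2 CPM in KO libraries and 4.87 ± 0.35 in WT libraries. Rps27rt, a retrogene of Rps27, averaged 3.04 ± 0.25 in KO libraries and 2.69 ± 0.74 in WT libraries. Rpl7l1 averaged 4.85 ± 0.24 log2 CPM in KO libraries and 5.08 ± 0.27 in WT libraries. The values of its parent Rpl7 were lower, 2.97 ± 0.57 in KO libraries and 3.24 ± 0.40 in WT libraries. Of the coding-end windows 100% were shared in Rpl7 and 51.7% in Rpl7l1, and the part of this in their order was not tested. Rpl36al averaged 4.38 ± 0.81 log2 CPM in KO libraries and 4.36 ± 0.72 in WT libraries (SD, n = 10 and 8 throughout).

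Rps19bp1 matches the symbol rule but is no ribosomal protein. It binds Rps19 and is known as a partner of the NAD-dependent deacetylase Sirt1. It had 4.63, 5.36 and 6.05 log2 CPM in KO libraries, against 4.87, 5.32 and 6.04 in WT libraries, a difference of 0.07 ± 0.19 (log2, SE). The 95% interval of -0.32 to 0.46 excludes a 2-fold change.

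Ubiquitin is made in part as a fusion with ribosomal proteins. Rps27a, one such fusion gene, averaged 1.81 ± 0.60 log2 CPM in KO libraries and 1.69 ± 0.83 in WT libraries. Fau, which fuses a ubiquitin-like protein to a small-subunit protein, averaged 2.26 ± 0.47 in KO libraries and 2.06 ± 0.71 in WT libraries. Rack1, a scaffold on the small subunit, was far higher, at 8.22 ± 0.30 log2 CPM in KO libraries and 8.39 ± 0.18 in WT libraries. Neither Fau nor Rack1 passed the test.

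**Figure D4:**
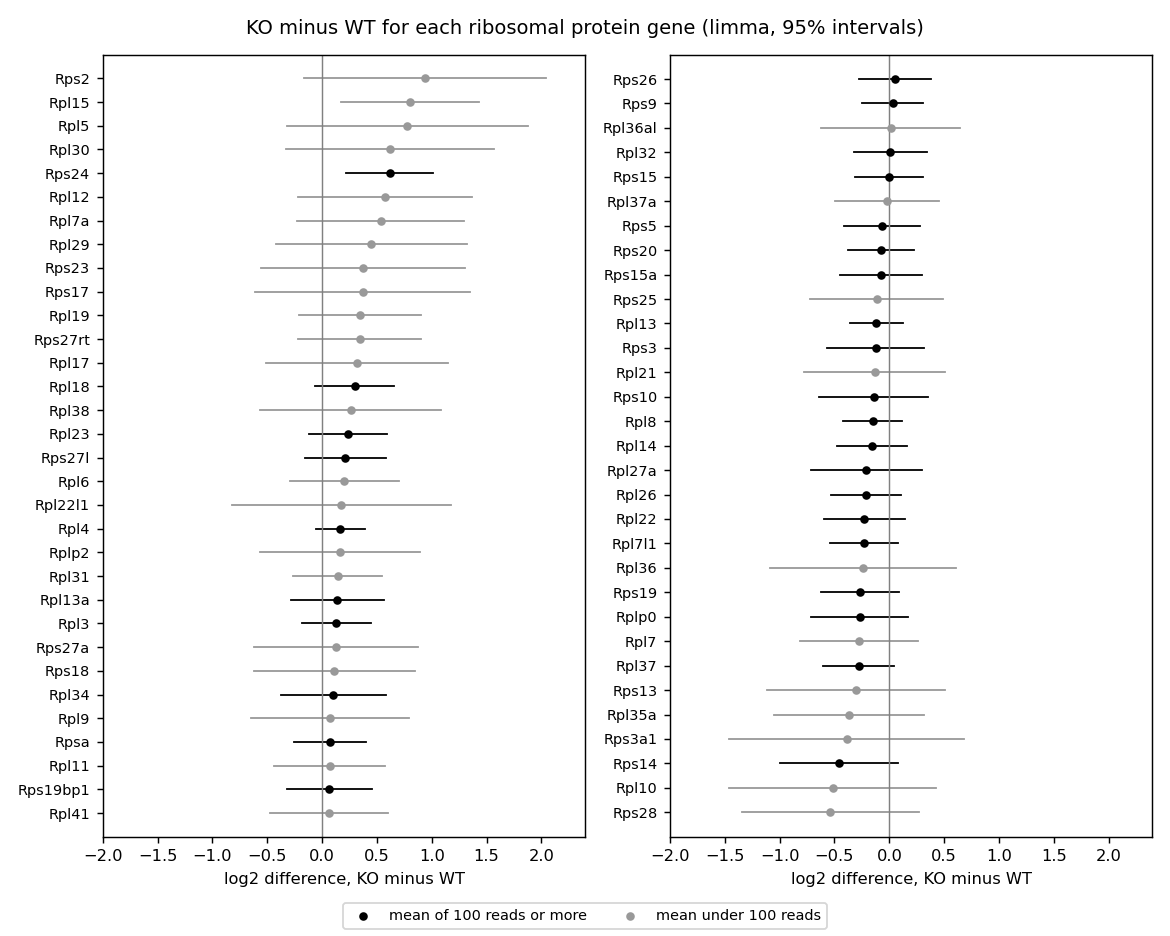
KO minus WT difference of 63 of the 64 genes on the log2 scale, each with its 95% interval from limma, sorted by difference, black for a mean of 100 reads or more and grey for fewer. The intervals of Rps24 and Rpl15 lie above 0, neither gene passed adjustment, and the widest intervals belong to genes with few reads.

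Genes that act with the ribosome were not called either. Of 11 elongation genes 10 were measured, 5 higher and 5 lower in KO libraries with a median of -0.03, and 0 were called. Eef1a1, which brings aminoacyl-tRNA to the ribosome, averaged 6.09 ± 0.66 log2 CPM in KO libraries and 5.24 ± 0.66 in WT libraries. Its difference was 0.85 ± 0.26 (log2, SE; limma p = 0.00294, adjusted p = 0.797). Eif5a, which helps ribosomes past difficult stretches, averaged 5.94 ± 0.38 in KO libraries and 6.20 ± 0.21 in WT libraries. Eef2k, the kinase that inhibits elongation factor Eef2, had a KO minus WT difference of 0.15, and Eef1b2, an exchange factor of Eef1a1, had -0.21.

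Of 61 ribosome biogenesis genes 50 were measured, 31 higher and 19 lower with a median of 0.03, where 49.6% of all listed genes were higher. None of the 50 was called. By limma 4 of the 50 had an unadjusted p under 0.05, against 5.4% of all listed genes. Bop1, a factor in maturation of the large subunit, averaged 3.82 ± 0.34 log2 CPM in KO libraries and 3.08 ± 0.58 in WT libraries (limma p = 0.0044, adjusted p = 0.805). Sbds, which releases a factor that keeps the large subunit inactive, averaged 4.40 ± 0.52 in KO libraries and 4.87 ± 0.49 in WT libraries (limma p = 0.0473, adjusted p = 0.925). Gar1 and Nop10, proteins of the H/ACA particles that modify ribosomal RNA, had differences of 0.90 and -0.20, and neither passed. The 70 mitochondrial ribosomal protein genes had 30 higher and 40 lower, with a median of -0.04.

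Titles end in a number that the labels do not explain, and 3 runs of consecutive title numbers held both genotypes. What a run shared is not stated. The mean log2 level of the 64 genes differed between KO and WT by -0.31 in the first run (KO 2, KO 3, WT 1 and WT 2), by -0.06 in the second (KO 4, KO 5, WT 3 and WT 4) and by 0.05 in the third (KO 6, KO 7, KO 8 and WT 5). In the share of reads the first run had 0.513% in KO libraries and 0.770% in WT libraries, the second 0.690% and 0.796%, and the third 0.763% and 0.787%. The KO libraries of the first run, KO 2 and KO 3, had more listed genes without a read than any other KO library. A fit with the run as a term could use only the 12 libraries of these runs, 7 KO and 5 WT, so both the libraries and the model differed from the fit on all 18. There the median KO minus WT difference was -0.15 and 0 of the 64 genes were called, as were 0 of all listed genes. Of the 64 genes 25 were higher in KO libraries, against 36 in the fit on all 18. By limma 8 of the 64 had an unadjusted p under 0.05, against 2 in the fit on all 18. The share of all listed genes at that unadjusted threshold was not counted for the 12 libraries.

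Markers of other cells were measured beside these values. The acinar list (19 of 30 genes measured) averaged 1.14 to 6.41 log2 CPM in KO libraries and 1.37 to 6.28 in WT libraries, and with it as a term 0 ribosomal protein genes were called. The adipocyte list (3 of 9 genes measured) averaged 2.60 to 4.61 in KO libraries and 2.14 to 3.22 in WT libraries. The alpha-cell list (9 of 12 measured) averaged 5.36 to 6.70 in KO libraries and 5.79 to 6.88 in WT libraries. The part of alpha cells and adipocytes in the levels of ribosomal protein genes was not tested.

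The Ins2 share of reads was related to some of the 64 genes. It was 44.6% ± 5.56 in KO libraries and 38.7% ± 3.78 in WT libraries (SD, n = 10 and 8). The share of Ins1, the gene that drives Cre, went the other way, at 4.42% ± 1.35 in KO libraries and 7.24% ± 1.48 in WT libraries. The Ins2 share, used here as a term, thus itself differed between the groups, and the reason was not tested. In a limma model with the Ins2 share and genotype as terms, 7 of the 64 genes (10.9%) had a slope with an adjusted p under 0.05, against 2.97% of all listed genes. All 7 slopes were negative, and 2.28% of all listed genes had such a negative slope. By sign 42 of the 64 slopes were negative, against 53.5% of all listed genes. The median slope was -0.021 log2 per percentage point of Ins2 reads, against -0.0033 over all listed genes.

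The steepest slopes belonged to Rps2, at -0.23 ± 0.039 (SE; limma adjusted p = 0.00261), and Rpl22l1, at -0.22 ± 0.033 (limma adjusted p = 0.00111). Among the called genes Rpl41, the shortest ribosomal protein, came next with -0.11 ± 0.019 (limma adjusted p = 0.0029). The other called genes were Rpl34 with -0.084, Rpl13a with -0.074, Rps19 with -0.063 and Rps15a with -0.063. Rpl29 and Rpl10 had steeper slopes than Rpl41 and did not pass, Rpl29 at -0.12 ± 0.040 (limma adjusted p = 0.0859) and Rpl10 at -0.12 ± 0.045 (limma adjusted p = 0.144). The steepest positive slopes, of Rpl21 and Rpl9, were 0.058 and 0.052, and did not pass either.

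Each of the 7 had its lowest KO value in KO 3 and its lowest WT value in WT 7, the libraries with the highest Ins2 share of their group. Rps2 had -0.07 log2 CPM in KO 3, where the other KO libraries had 3.25 to 4.54, and -0.04 in WT 7, where the other WT libraries had 1.56 to 4.12. Rpl41 had 3.19, 4.59 and 5.17 log2 CPM as the lowest, median and highest value in KO libraries, against 2.83, 4.66 and 5.14 in WT libraries. Rpl34 had 6.61, 7.76 and 7.92 log2 CPM in KO libraries, against 5.66, 7.79 and 8.09 in WT libraries.

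Without KO 3, 0 of the 64 genes were called on the slope, and 0% of all listed genes. Without WT 7 there were 3, against 0.285% of all listed genes, and without KO 10 there were 11, against 5.43%. Without KO 2, KO 3 and WT 7 there were 0, and the median slope was 0.0046. Without the variance trend there were 4, against 1.53% of all listed genes, and with voom on the recovered reads 1, against 0.409%. With the run of title numbers as a term, in the 12 libraries of the runs, there were 3, against 0.371%. The signs of the 7 slopes were negative in each of these fits.

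Over libraries, the mean log2 level of the 64 genes and the Ins2 share had a Pearson's r of -0.45 and a Spearman's rho of -0.36 (n = 18). Within KO libraries r was -0.54 (n = 10) and within WT libraries -0.86 (n = 8). Without KO 2 and KO 3, the libraries farthest from the median Ins2 share, r was -0.15. Without KO 2, KO 3 and WT 7 it was 0.14, so a negative r was not seen without these libraries. They also held the lowest mean log2 levels, so leaving them out weakens a negative r in part by construction. The median log2 level of all listed genes had an r of -0.56 with the Ins2 share, -0.67 within KO libraries and -0.95 within WT libraries. The share of reads in the 64 genes had an r of -0.74 with the Ins2 share. It was -0.57 without KO 2 and KO 3 and -0.49 without KO 2, KO 3 and WT 7. With insulin reads left out of the total, r over the 18 libraries was -0.09. Each read of Ins2 lowers the share of all other genes, and the part of this in the relation was not tested. These correlations are descriptions over libraries that also share a depth and a scaling factor each.

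**Figure D5:**
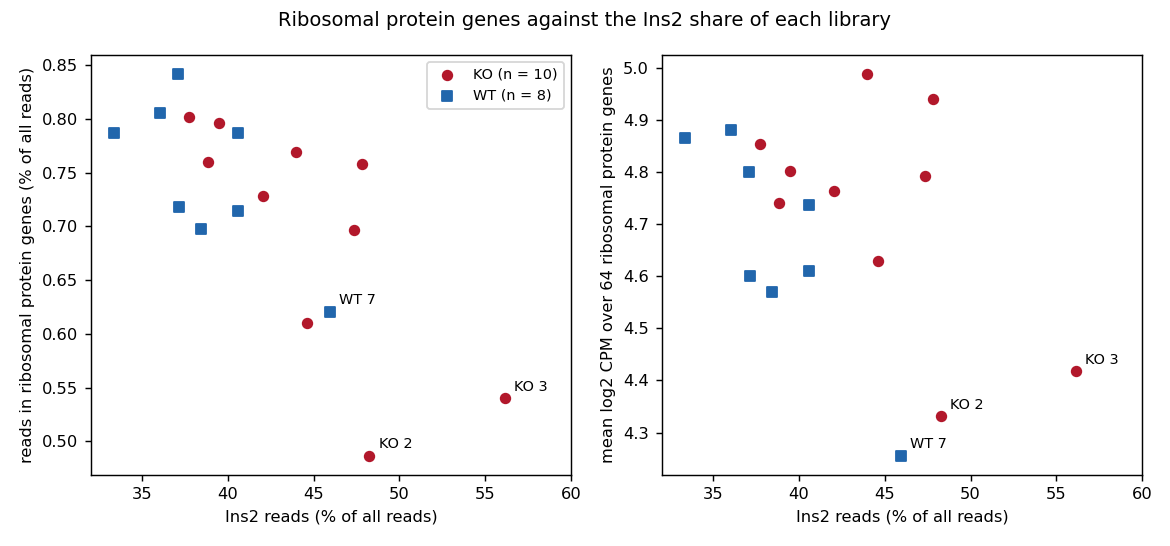
Share of reads in the 64 genes (left) and their mean log2 CPM (right) against the Ins2 share of reads, with 1 point per library, KO as circles and WT as squares. KO 2, KO 3 and WT 7 hold the lowest mean log2 levels, 4.33, 4.42 and 4.26, and lie at an Ins2 share of 45.9% to 56.1%. KO 1 and KO 10 lie in the same range, at 47.3% and 47.8%, with mean levels of 4.79 and 4.94.

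With the Ins2 share as a term, the KO minus WT test called 2 of the 64 genes, against 0.152% of all listed genes. Rps24 was higher in KO by 0.93 ± 0.20 (log2, SE; limma adjusted p = 0.0489) and Rps2 by 2.31 ± 0.43 (limma adjusted p = 0.0387). Over all alternatives the adjusted p of Rps24 ranged from 0.0489 to 0.985 and that of Rps2 from 0.0387 to 0.991. Both values depend on the slope of these genes on the Ins2 share, and Rps2 had 1 read in KO 3 and 1 read in WT 7.

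The start sites were searched for the pyrimidine run that these messenger RNAs are known for. In RefSeq promoters of GRCm38.p6, 49 of the 64 genes had an entry. A window of 30 bases was read, 15 before and 15 from the annotated start, on the gene's strand alone, and a run was at least 8 bases in a row that were each C or T. Such a run was found in 22 of the 49 genes (44.9%), against 15.1% of the listed genes with an entry and 13.9% of all genes of the promoter table. A match describes letters near an annotated start and no more.

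The windows with the longest runs are shown, together with those of Rpl13a and Rpl4, because Rpl34 and Rpl13a are among the 7 genes related to the Ins2 share and Rpl4 varied least. Capitals mark the longest run of C and T. The windows lie at chr2:26910792-26910821 (plus strand) for Rpl7a, chr7:109519180-109519209 (plus) for Rpl27a, chr3:130730323-130730352 (minus) for Rpl34, chr14:18270972-18271001 (minus) for Rpl15, chr7:45128731-45128760 (minus) for Rpl13a and chr9:64173372-64173401 (plus) for Rpl4.
Rpl7a: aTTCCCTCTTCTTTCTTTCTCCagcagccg
Rpl27a: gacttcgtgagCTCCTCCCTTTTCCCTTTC
Rpl34: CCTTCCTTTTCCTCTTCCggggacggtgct
Rpl15: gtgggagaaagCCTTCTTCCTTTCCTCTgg
Rpl13a: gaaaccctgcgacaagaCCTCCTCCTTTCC
Rpl4: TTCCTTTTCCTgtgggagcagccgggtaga

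The 22 genes with a run had a median level of 5.33 log2 CPM, and the 27 without one had 4.37. In KO against WT, 16 of the 22 were higher and 6 lower, with a median difference of 0.14. Of the 27 others 13 were higher and 14 lower, with a median of -0.0033. None of these genes was called, and 49.6% of all listed genes were higher. KO against WT was not summarised over the other listed genes with a run. Of the genes called on the Ins2 share, 4 had a run and 3 did not. The median slopes were -0.022 and -0.021 log2 per percentage point. Of the 24 other translation genes known for such a tract 21 were measured, 10 higher and 11 lower in KO libraries, with a median of -0.0093.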

How the data were processed

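Islet RNA had been made into 3′ end libraries with the QuantSeq FWD kit, per the labels' protocols. The authors deposited 1 table of log2 values, with 10509 genes and a column for each of 18 samples. The submitters' processing notes name the build GRCm38 and the tools edgeR, HTSeq 0.6.1 and STAR 2.5.2. The sources used here do not give their roles, the annotation or the treatment of reads that match several places. The deposited log2 values were log2 of CPM plus 0.562. With that constant removed, each library held whole multiples of what 1 read is worth, 0.238 to 0.411 CPM, within 0.05 reads for 100% of values, and reads were taken from these. The CPM holds a scaling factor per library. Differences on this log2 scale understate changes of genes with few reads. PCR copies are not independent molecules, so limits from counts cover counting error only.

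Groups came from the genotype labels, which give no replicate numbers, so libraries were numbered in accession order. Each library counted as 1 sample, as the labels list them. None of the 73 pairs within a group agreed within counting error (chi-square per degree of freedom 6.22 to 44.3), so none was merged as a repeated deposit, which does not show that the libraries came from separate mice. Tests used limma 3.58.1 in R 4.3.3 with a variance trend on all genes with log2 above 0 in at least 8 samples, which all 10509 passed. Data were simulated for 10509 genes, with 50 genes changed at each of 1.5-, 2-, 4- and 8-fold and the noise of each gene drawn independently. The KO against WT test found 20% of genes changed 1.5-fold, 66% at 2-fold and 94% at 4-fold. The slope test found 4% of genes changed 2-fold over the range of the Ins2 share, 34% at 4-fold and 68% at 8-fold. Large planted changes ease the adjustment for smaller ones, so these rates can be too high for the measured data.

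Alternatives were a stricter filter (log2 above 3), no filter, 1 added in place of 0.562, median centring, scaling by reads outside Ins1 and Ins2, no trend, voom, the Ins2 share or the acinar score as a term, runs of title numbers as a term in the 12 libraries that belong to such a run, leaving out each library, leaving out KO 2, KO 3 and WT 7, and leaving out Rps19bp1 and the copies of ribosomal protein genes. Using the genes with a mean of 100 reads or more was added after the values were seen. Members, lists and named genes were chosen with earlier results of these data known. Named genes were the 4 of smallest p in each direction, the 3 steepest slopes in each direction (1 of these genes is not reported here by name, nor drawn by name in the figures), the 5 highest and 5 lowest levels, the 3 largest and 3 smallest spreads, the diverged copies with their parents, Rplp0, Rplp2, Rpl41 and Rps27a, and of the elongation and biogenesis lists the 2 of smallest p in each direction. Rpl27a, Rpl34, Rpl13a and Rps15a, the genes whose sequences are shown and the called genes outside these were named after their values were seen. Coordinates and start windows came from RefSeq (GRCm38.p6), and transcript and coding ends from GENCODE M21 (GRCm38).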

Additional observations from a re-analysis of the deposited data

Results flagged for a closer look

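Each named gene and both summary values of the ribosomal protein genes were screened, KO and WT apart, for 1 library far from the rest of its group. Of the 100 sets of values 11 stood out. Chance flags about 1 in 20 sets, but several of the genes were named for their spread or after their values were seen, so that rate is no yardstick for this count. Rps2 in KO 3 had -0.0701 log2 CPM, from 1 read, with the other KO libraries at 3.25 to 4.54. Rps15a was apart in both groups, at 6.33 log2 CPM in KO 3, with the other KO libraries at 7.2 to 8.0, and at 6.77 in WT 7, with the other WT libraries at 7.37 to 7.89. WT 7 also stood apart in Rpl34, Rpl37 and Rpl41. It had 5.66 log2 CPM of Rpl34, against 7.16 to 8.09 in the other WT libraries, 5.10 of Rpl37, against 5.93 to 6.53, and 2.83 of Rpl41, against 4.28 to 5.14. Rpl26 was apart in both groups as well, but in other libraries, at 7.78 log2 CPM in KO 2, with the other KO libraries at 8.39 to 9.02, and at 8.13 in WT 1, with the other WT libraries at 8.73 to 9.16. Rplp2 in KO 4 had 0.12 log2 CPM, from 2 reads, against 2.20 to 3.32 in the other KO libraries. Outside the ribosomal protein genes, Sbds in KO 9 had 3.12 log2 CPM, against 4.01 to 4.90 in the other KO libraries, and Gar1 in KO 3 had 0.426, against 1.78 to 3.32. KO 2, KO 3 and WT 7 had more genes without a read than any other library, and the part of that in these values was not tested.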

How the results depend on the processing

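The count of 0 called genes between KO and WT was the same under all alternatives run except the Ins2 share as a term, which gave 2. The median KO minus WT difference ranged from -0.15, in the 12 libraries of the runs of title numbers with the run as a term, to 0.14. It ranged from -0.04 to 0.07 when each library was left out. Rps19 reversed from -0.27 to 0.11 with the Ins2 share as a term, since that term removes its negative slope.

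The count of 7 genes called on the Ins2 share was 4 without the variance trend, 1 with voom, 3 with the run as a term in those 12 libraries, 4 among the genes with a mean of 100 reads or more, and 0 without KO 2, KO 3 and WT 7. Leaving out each library gave 0 to 11. The median slope of -0.021 was -0.0099 under the stricter filter, -0.0018 with the run as a term in the 12 libraries, -0.011 among the better-covered genes and 0.0046 without the 3 libraries, and -0.027 to -0.012 when each library was left out. The correlation of -0.45 was 0.14 without the 3 libraries and -0.57 to -0.32 when each was left out. The spread of 0.55 was 0.43 under the stricter filter, 0.44 without the 3 libraries and 0.37 in the better-covered genes, and 0.52 to 0.57 when each library was left out. Apart from the construction of each alternative, the cause of these moves was not tested. The difference in the share of reads was between -0.07 and -0.016 percentage points under the 22 settings run for it. These did not include the runs of title numbers.

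Depth limits the 33 genes with a mean under 100 reads. No paired analysis was possible because the labels give no replicate numbers shared by the 2 groups. The fit with the run as a term groups libraries by title number and pairs none.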
